A study of Homo sapiens with 12 samples.

Results

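The genes described here are 10 genes of mitogen-activated protein kinase (MAPK) signaling, taken by name: the phosphatases DUSP1, DUSP4, DUSP5 and DUSP6, the Sprouty genes SPRY1, SPRY2 and SPRY4, the Sprouty-related genes SPRED1 and SPRED2, and the immediate early gene IER3. They are called feedback genes below, with IER3 included as an early response gene. All 10 were found among the 48162 gene IDs of the count tables. RNA sequencing was performed on 12 libraries of IMR90 cells, fibroblasts cultured from normal human lung. There were 4 groups with 3 libraries each, and all cells grew in 2% oxygen. RAS/shDOT1L cells carried pBABE-HRAS G12V together with 1 hairpin against DOT1L in pLKO.1. RAS cells carried pBABE-HRAS G12V, an oncogene that drives these fibroblasts into senescence. DOT1L OE cells carried the human DOT1L cDNA in the vector MSCB, and control cells are described as carrying pBABE alone. DOT1L is the methyltransferase of lysine 79 of histone H3. By the sample descriptions, selection lasted 4 days, with puromycin at 3 µg/mL in RAS/shDOT1L, RAS and control and with blasticidin at 1 µg/mL in DOT1L OE. The vector and drug of DOT1L OE thus cannot be told apart from DOT1L itself in the comparison with control. The methods of the study give that puromycin dose and duration for hairpin vectors, and a lower dose for longer for pBABE cells. The labels give RAS cells no hairpin vector, whereas legends of the study speak of a hairpin against GFP as control for such experiments. Whether the sequenced RAS or control cells carried it is not settled by these sources. If they did not, an added lentiviral infection cannot be told apart from the loss of DOT1L in RAS/shDOT1L.

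Active RAS passes its signal through the kinases RAF, MEK and ERK, and ERK in turn switches on genes whose products restrain the same cascade. The DUSP genes of this group encode dual-specificity phosphatases that remove phosphate from MAP kinases. Sprouty and SPRED proteins act further up, between growth factor receptors, RAS and RAF. Because ERK induces them, transcripts of these genes are widely read as a measure of ERK pathway output, and the comparisons ask how that readout stood with oncogenic RAS, with RAS and less DOT1L, and with DOT1L alone.

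Library totals ran from 16128055 to 19503457 counts. HRAS, whose counts hold both the transgene and the endogenous gene, averaged 275 ± 13.0 CPM in RAS/shDOT1L, 503 ± 10.0 in RAS, 79.4 ± 5.46 in DOT1L OE and 85.9 ± 2.82 in control (CPM are counts scaled to a common library size; SD, n = 3 each), and DOT1L averaged 10.98 ± 0.644, 84.5 ± 3.42, 202 ± 9.19 and 31.7 ± 2.33 CPM in the same order. HRAS was highest in the groups that carried its transgene, and DOT1L was highest in DOT1L OE and lowest in RAS/shDOT1L, as labelled. The labels do not account for the lower HRAS in RAS/shDOT1L than in RAS. Nor do they account for the higher DOT1L in RAS than in control. Of 10 fibroblast markers, 10 exceeded 1 CPM in every group, and their summed level ran from 16989 to 21332 CPM. Of 8 immune cell markers, 1 or 2 exceeded 1 CPM in a group, and their sum ran from 1.49 to 5.55 CPM. Of 7 endothelial markers, 1 to 4 exceeded 1 CPM, CDH5 and EMCN had no count in RAS, DOT1L OE or control, and the sum, 32.4 to 140 CPM, came mostly from TEK. Of 8 epithelial markers, 4 to 6 exceeded 1 CPM, most of the sum came from the keratins KRT8, KRT18 and KRT19, and it ran from 329 to 353 CPM in RAS/shDOT1L, 104 to 118 in RAS, 133 to 140 in DOT1L OE and 259 to 278 in control. Mitochondrially encoded genes took 3.64% to 3.87% of the counts in RAS, against 2.12% to 2.54% in the other 9 libraries. The part that these markers and the mitochondrial share had in the results below was not tested.

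The 10 feedback genes took 0.114% to 0.118% of all counts in RAS/shDOT1L, 0.281% to 0.291% in RAS, 0.0857% to 0.0919% in DOT1L OE and 0.0565% to 0.0581% in control. IER3 made up 61.9% to 62.9% of the members' counts in RAS, against 22.2% to 23.3% in control. Its part was 40.0% to 41.8% in RAS/shDOT1L and 20.05% to 20.95% in DOT1L OE. Without IER3, the members had 18813 to 19778 counts in RAS and 7978 to 8429 in control. They had 10688 to 11529 in RAS/shDOT1L and 11641 to 14164 in DOT1L OE. In these counts, not scaled for library totals, RAS stayed above control but RAS/shDOT1L was not above DOT1L OE. All 10 passed the filter on low counts in all 4 comparisons. Per kilobase of exon, IER3 ranked first in RAS/shDOT1L, RAS and control, and DUSP1 ranked first in DOT1L OE. SPRY1 and, in control and DOT1L OE, DUSP4 were the least abundant. In these bulk samples, fewer cells that express a gene and less RNA per cell cannot be told apart.

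**Figure D1:**
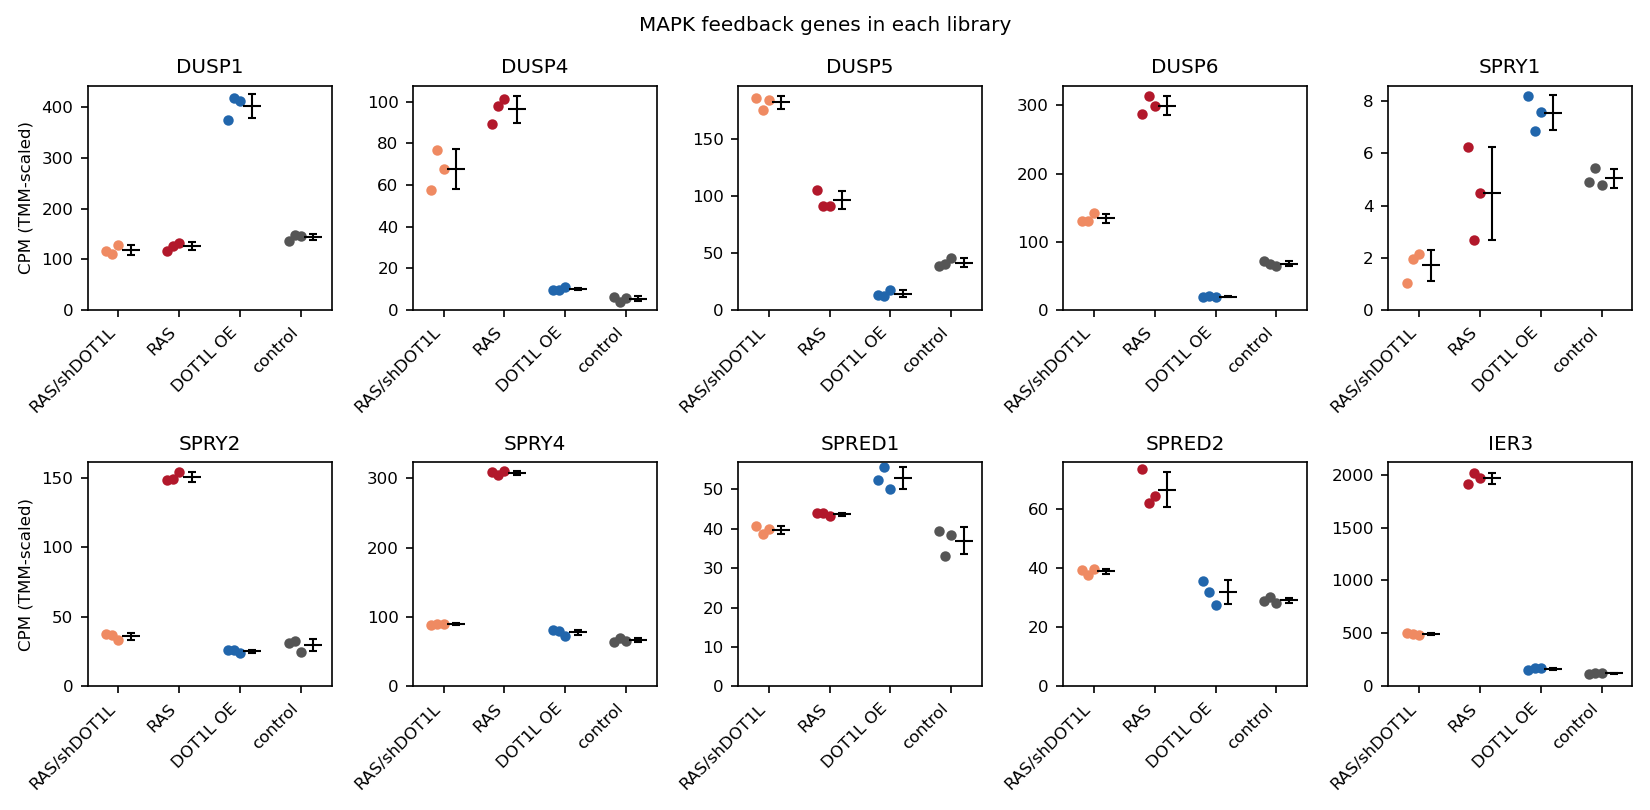
CPM (y axes, TMM-scaled, starting at 0) of the 10 genes in each library, one panel per gene and one point per library; the bar beside each group is the mean ± SD of 3 libraries. IER3, SPRY2, SPRY4 and DUSP6 were highest in RAS, DUSP5 was highest in RAS/shDOT1L and DUSP1 was highest in DOT1L OE.

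The comparison of RAS with control asked which feedback genes moved with the oncogene. Of the 10 genes, 8 were higher in RAS, 1 (DUSP1) was lower and 1 (SPRY1) did not pass the test. The median log2 change over the 10 was 1.68, against -0.04 over all 13554 genes tested. In that comparison 64% of all genes were called changed, 31.9% higher and 32% lower, so a call by itself was common, and 8 of 10 higher is to be read against 31.9%. A gene was called changed at an adjusted p under 0.05 in the quasi-likelihood test of edgeR, which fits the counts of all genes. The spread behind these p-values may be only technical (see the processing below). The share of all genes with no overlap between groups was not counted. A lack of overlap below therefore describes only the values of the gene named.

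The 4 DUSP genes encode phosphatases of different reach. DUSP4 (ENSG00000120875; GRCh38 chromosome 8, 29333064 to 29350684, minus strand) encodes a nuclear phosphatase of ERK and other MAP kinases. It stood at 89.3, 98.1 and 102 CPM in RAS, against 6.19, 3.88 and 5.63 CPM in control. The lowest RAS library was far above the highest control library, and DUSP4 was 18.3-fold higher in RAS (edgeR log2 change 4.19, SE 0.12, adjusted p = 5.08e-25). DUSP6 (ENSG00000139318; chromosome 12, 89347235 to 89352501, minus strand) encodes the cytoplasmic phosphatase that acts on ERK in particular. It stood at 287, 314 and 299 CPM in RAS, against 71.0, 67.5 and 64.4 CPM in control, 4.43-fold higher with no overlap (edgeR log2 change 2.15, SE 0.06, adjusted p = 3.71e-26). DUSP5 (ENSG00000138166; chromosome 10, 110497907 to 110511533, plus strand) encodes the nuclear counterpart of DUSP6, likewise specific for ERK. It stood at 105, 91.5 and 91.4 CPM in RAS, against 38.4, 40.1 and 45.7 CPM in control, a smaller rise of 2.32-fold (edgeR log2 change 1.21, SE 0.08, adjusted p = 9.97e-15).

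DUSP1 (ENSG00000120129; chromosome 5, 172768096 to 172771195, minus strand), the immediate early nuclear phosphatase of JNK, p38 and ERK, went the other way by a small amount. It stood at 117, 126 and 133 CPM in RAS, against 137, 147 and 146 CPM in control. All 3 RAS libraries were below all 3 control libraries, and the difference was 1.15-fold (edgeR log2 change -0.20, SE 0.06, adjusted p = 0.00418). With an offset for the GC content of transcripts, the log2 change of DUSP1 was -0.55. The log2 change of DUSP5 with that offset was 0.84. Both calls held with it.

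Among the Sprouty genes, which encode inhibitors of receptor tyrosine kinase signaling, SPRY2 (ENSG00000136158; chromosome 13, 80335976 to 80341126, minus strand) and SPRY4 (ENSG00000187678; chromosome 5, 142310427 to 142326455, minus strand) rose together. SPRY2 stood at 148, 149 and 154 CPM in RAS, against 31.1, 32.8 and 24.6 CPM in control, 5.11-fold higher (edgeR log2 change 2.35, SE 0.08, adjusted p = 1.16e-22). SPRY4 stood at 308, 305 and 310 CPM in RAS, against 64.3, 69.9 and 65.4 CPM in control, 4.62-fold higher (edgeR log2 change 2.21, SE 0.05, adjusted p = 5.63e-27). In both genes the RAS libraries lay close together and well above control. SPRY1 (ENSG00000164056; chromosome 4, 123396795 to 123403760, plus strand) stood at 6.26, 2.67 and 4.47 CPM in RAS, against 4.90, 5.44 and 4.77 CPM in control. The RAS values lay on both sides of the control values, and no difference was detectable at this depth of 44 to 105 counts in a library (edgeR log2 change -0.17, SE 0.29, adjusted p = 0.61).

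SPRED proteins are membrane inhibitors of RAS and RAF, and SPRED1 brings the RAS inactivator neurofibromin to the membrane. SPRED2 (ENSG00000198369; chromosome 2, 65310851 to 65432637, minus strand) stood at 73.2, 61.7 and 64.3 CPM in RAS, against 28.8, 30.01 and 28.2 CPM in control, 2.29-fold higher (edgeR log2 change 1.19, SE 0.09, adjusted p = 2.4e-13). SPRED1 (ENSG00000166068; chromosome 15, 38252836 to 38357249, plus strand) stood at 43.9, 43.9 and 43.2 CPM in RAS, against 39.3, 33.0 and 38.4 CPM in control. This was a narrow gap between groups that did not overlap, called by edgeR (log2 change 0.24 ± 0.10 SE, adjusted p = 0.0281). The SPRED1 call ended without control library 2 (log2 change 0.17, adjusted p = 0.161), without RAS library 2 (0.24, adjusted p = 0.0575) and when libraries were scaled by their totals alone (0.04, adjusted p = 0.718), whereas the GC offset gave 0.84 (adjusted p = 3.31e-09). The transcript of SPRED1 had the lowest GC content of the 10 genes, 36.3%, and that of IER3 the highest, 58.5%.

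IER3 (ENSG00000137331; chromosome 6, 30743199 to 30744548, minus strand), an immediate early gene of growth factor and stress signaling that affects cell survival, had the highest level of the 10 genes in RAS. It stood at 1912, 2017 and 1970 CPM in RAS, against 120, 130 and 123 CPM in control. The groups were 15.8-fold apart (edgeR log2 change 3.98, SE 0.04, adjusted p = 1.83e-38), and the GC offset gave a log2 change of 3.54. Antisense genes overlap 32.6% of the exons of IER3 (IER3-AS1) and 28.6% of those of DUSP6, and the sources used here give no strand setting for the counting, so reads of these antisense genes cannot be told apart from those of IER3 and DUSP6.

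**Figure D2:**
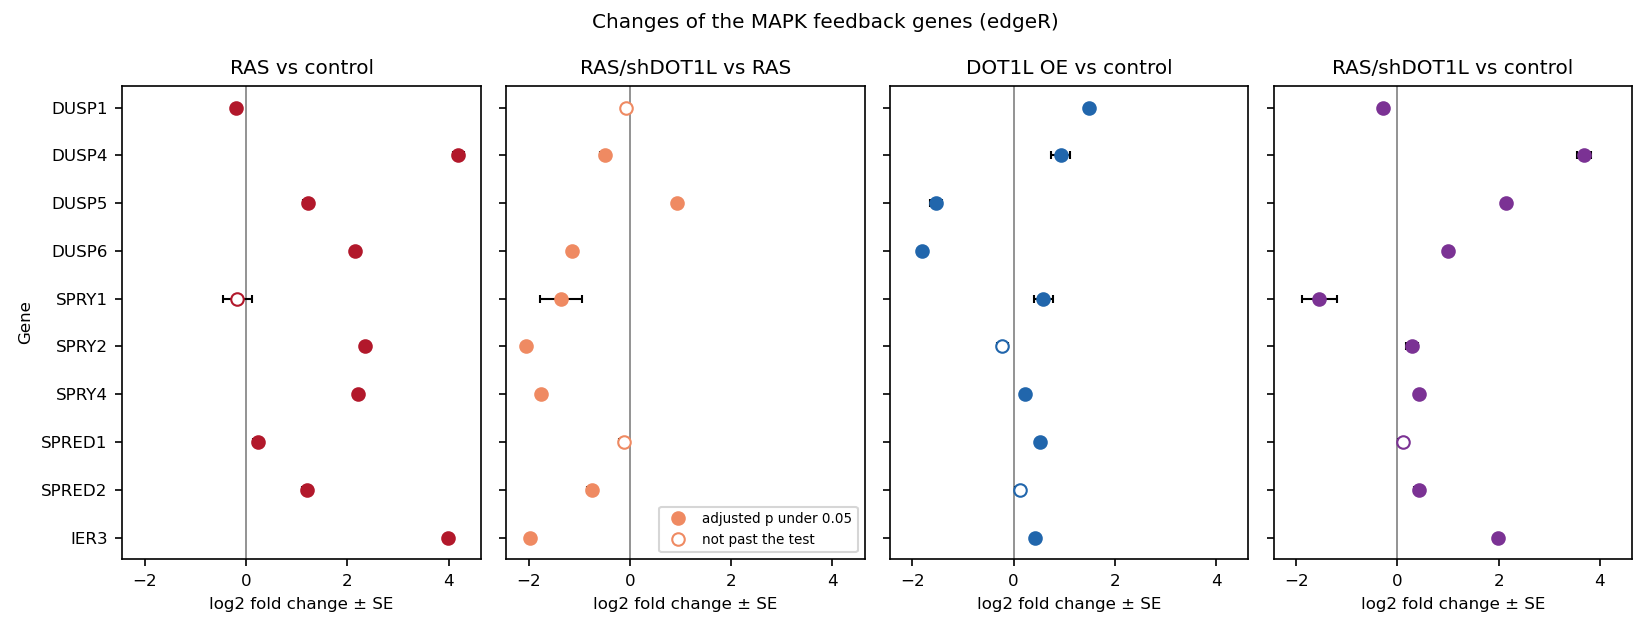
Log2 fold changes of the 10 genes (rows) in the 4 comparisons (panels), from edgeR; bars are standard errors, filled points passed an adjusted p under 0.05 and open points did not. In RAS against control, 8 of 10 points are filled to the right of 0, and in RAS/shDOT1L against RAS 7 are filled to the left of 0 with DUSP5 alone filled to the right.

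The comparison of RAS/shDOT1L with RAS asked what became of these transcripts when DOT1L was reduced in cells that carried the oncogene. Of the 10 genes, 7 were lower in RAS/shDOT1L, 1 (DUSP5) was higher and 2 (DUSP1 and SPRED1) did not pass the test. The median log2 change was -0.95, against 0.03 over all 13398 genes tested, of which 52.7% were called, 26.3% higher and 26.4% lower. HRAS was also lower in RAS/shDOT1L, at 275 against 503 CPM in RAS (edgeR log2 change -0.85, SE 0.05, adjusted p = 3.87e-16), and the part of that difference in the values below was not tested.

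SPRY2 and IER3 had the largest falls in the main test, by similar amounts. SPRY2 stood at 37.6, 37.1 and 33.1 CPM in RAS/shDOT1L, against 148, 149 and 154 CPM in RAS (edgeR log2 change -2.05, SE 0.08, adjusted p = 3.13e-21). IER3 stood at 500, 495 and 485 CPM in RAS/shDOT1L, against 1912, 2017 and 1970 CPM in RAS (edgeR log2 change -1.98, SE 0.04, adjusted p = 5.3e-29). SPRY4 stood at 88.5, 90.1 and 90.3 CPM in RAS/shDOT1L, against 308, 305 and 310 CPM in RAS (edgeR log2 change -1.76, SE 0.06, adjusted p = 6.18e-23). In these 3 genes the libraries of a group lay close together and the groups were over 3-fold apart.

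DUSP6 and DUSP5, the paired cytoplasmic and nuclear ERK phosphatases, moved in opposite directions. DUSP6 stood at 131, 130 and 142 CPM in RAS/shDOT1L, against 287, 314 and 299 CPM in RAS, 2.20-fold lower (edgeR log2 change -1.14, SE 0.06, adjusted p = 1.11e-17). DUSP5 stood at 186, 175 and 184 CPM in RAS/shDOT1L, against 105, 91.5 and 91.4 CPM in RAS, 1.92-fold higher (edgeR log2 change 0.94, SE 0.07, adjusted p = 9.11e-14). DUSP5 was thus at its highest of the 4 groups in RAS/shDOT1L, and it was called higher there in all 16 settings run. Per kilobase of exon, the ratio of the DUSP5 level to the DUSP6 level was 2.16, 2.05 and 1.98 in the RAS/shDOT1L libraries, 0.56, 0.444 and 0.466 in RAS, 1.07, 0.92 and 1.44 in DOT1L OE and 0.823, 0.905 and 1.08 in control. This ratio is taken within a library, so it does not depend on the scaling between libraries, and it was above 1.9 in the RAS/shDOT1L libraries and below 0.6 in the RAS libraries. It is given with no test.

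Of the other members, DUSP4, SPRED2 and SPRY1 were called lower and DUSP1 and SPRED1 did not pass the test. DUSP4 stood at 57.7, 76.9 and 67.8 CPM in RAS/shDOT1L, against 89.3, 98.1 and 102 CPM in RAS, 1.41-fold lower (edgeR log2 change -0.49, SE 0.09, adjusted p = 1.15e-05). SPRED2 stood at 39.2, 37.7 and 39.5 CPM in RAS/shDOT1L, against 73.2, 61.7 and 64.3 CPM in RAS (edgeR log2 change -0.76, SE 0.09, adjusted p = 2.33e-08). SPRY1 stood at 1.04, 1.94 and 2.14 CPM in RAS/shDOT1L, against 6.26, 2.67 and 4.47 CPM in RAS (edgeR log2 change -1.36, SE 0.41, adjusted p = 0.00581). The SPRY1 values came from 16 to 34 counts in a RAS/shDOT1L library, and its call ended without RAS library 1 (log2 change -1.04, adjusted p = 0.083). DUSP1 stood at 116, 110 and 128 CPM in RAS/shDOT1L, against 117, 126 and 133 CPM in RAS, with overlapping groups (edgeR log2 change -0.07, SE 0.07, adjusted p = 0.439). SPRED1 stood at 40.6, 38.6 and 39.9 CPM in RAS/shDOT1L, against 43.9, 43.9 and 43.2 CPM in RAS (edgeR log2 change -0.12, SE 0.10, adjusted p = 0.322), although with the GC offset it was called lower (-0.50, adjusted p = 7.25e-05).

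Set against control, RAS/shDOT1L cells had 7 of the 10 genes higher, 2 lower (DUSP1 and SPRY1) and 1 that did not pass the test (SPRED1, which was called higher with the GC offset alone, at a log2 change of 0.35 and an adjusted p = 0.00415). The background was 55.5% of 13519 genes called, 27.9% higher and 27.6% lower. The median log2 change was 0.43, against -0.01 over all genes. This comparison shares its control libraries with that of RAS and its RAS/shDOT1L libraries with that of RAS/shDOT1L and RAS. DUSP4 was 12.9-fold, DUSP5 4.40-fold, IER3 3.98-fold and DUSP6 1.99-fold higher in RAS/shDOT1L than in control. SPRY4, SPRED2 and SPRY2 were 1.35-fold, 1.34-fold and 1.22-fold higher. These 7 genes were thus all called above control, DUSP4, DUSP5, DUSP6 and IER3 by larger folds than the Sprouty and SPRED genes. The SPRY2 call (edgeR log2 change 0.29, SE 0.11, adjusted p = 0.0325) ended without control library 3 (0.17, adjusted p = 0.254), without RAS/shDOT1L library 1 (0.26, adjusted p = 0.0867) or 2 (0.26, adjusted p = 0.0958), and when libraries were scaled by their totals alone (0.17, adjusted p = 0.205). DUSP1 was 1.21-fold lower than in control (edgeR log2 change -0.28, SE 0.06, adjusted p = 0.000654) and SPRY1 was 2.92-fold lower (edgeR log2 change -1.55, SE 0.35, adjusted p = 0.000387).

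The comparison of DOT1L OE with control asked whether more DOT1L without oncogenic RAS moved the feedback genes. Of the 10 genes, 6 were higher in DOT1L OE, 2 (DUSP5 and DUSP6) were lower and 2 (SPRY2 and SPRED2) did not pass the test. The background was 59.9% of 13660 genes called, 29.9% higher and 29.9% lower, and the median log2 change was 0.33 for the 10 genes and 0.01 for all genes. HRAS did not pass the test there (edgeR log2 change -0.11, SE 0.07, adjusted p = 0.154).

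DUSP1 had the largest rise. It stood at 376, 420 and 413 CPM in DOT1L OE, against 137, 147 and 146 CPM in control, 2.82-fold higher (edgeR log2 change 1.49, SE 0.05, adjusted p = 5.3e-22). DUSP1 was the one gene of the 10 called lower in RAS and higher in DOT1L OE, both against the same control libraries. DUSP6 stood at 18.9, 20.2 and 18.4 CPM in DOT1L OE, against 71.0, 67.5 and 64.4 CPM in control, 3.52-fold lower (edgeR log2 change -1.81, SE 0.08, adjusted p = 2.05e-18). DUSP5 stood at 13.3, 12.2 and 17.5 CPM in DOT1L OE, against 38.4, 40.1 and 45.7 CPM in control, 2.88-fold lower (edgeR log2 change -1.53, SE 0.12, adjusted p = 5.21e-13). DUSP5 and DUSP6 were thus both lowest of the 4 groups in DOT1L OE. DUSP7, a related phosphatase described below, did not pass the test there (edgeR log2 change -0.02, adjusted p = 0.891). DUSP4 stood at 9.70, 9.48 and 10.8 CPM in DOT1L OE, against 6.19, 3.88 and 5.63 CPM in control, a 1.91-fold rise at a low level (edgeR log2 change 0.93, SE 0.19, adjusted p = 6.12e-05).

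The Sprouty and SPRED genes and IER3 differed less between DOT1L OE and control. IER3 stood at 156, 175 and 169 CPM in DOT1L OE, against 120, 130 and 123 CPM in control (edgeR log2 change 0.43, SE 0.06, adjusted p = 8.04e-08). SPRED1 stood at 52.5, 55.7 and 50.1 CPM in DOT1L OE, against 39.3, 33.0 and 38.4 CPM in control (edgeR log2 change 0.52, SE 0.08, adjusted p = 2.91e-06). SPRY4 stood at 80.6, 79.6 and 73.2 CPM in DOT1L OE, against 64.3, 69.9 and 65.4 CPM in control (edgeR log2 change 0.23, SE 0.07, adjusted p = 0.00398). These 3 genes were called higher in DOT1L OE, by less than 1.5-fold on average. SPRY1 stood at 8.21, 6.86 and 7.58 CPM in DOT1L OE, against 4.90, 5.44 and 4.77 CPM in control (edgeR log2 change 0.59, SE 0.19, adjusted p = 0.0085), a call that ended in a single fit over all 4 groups (adjusted p = 0.0709). SPRED2 stood at 35.6, 32.0 and 27.5 CPM in DOT1L OE, against 28.8, 30.01 and 28.2 CPM in control, with overlap (edgeR log2 change 0.13, SE 0.10, adjusted p = 0.271). SPRY2 stood at 25.8, 25.8 and 23.8 CPM in DOT1L OE, against 31.1, 32.8 and 24.6 CPM in control (edgeR log2 change -0.23, SE 0.11, adjusted p = 0.066). It was called lower without control library 3 (-0.35, adjusted p = 0.00704), in the fit over all 4 groups (-0.23, adjusted p = 0.0353) and with the GC offset (-0.25, adjusted p = 0.0392).

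The makeup of the phosphatase transcripts differed between groups. Of the summed level per kilobase of DUSP1, DUSP4, DUSP5 and DUSP6, DUSP5 took 41.1% ± 1.30 in RAS/shDOT1L, 19.9% ± 2.12 in RAS, 2.66% ± 0.483 in DOT1L OE and 15.4% ± 1.08 in control (SD, n = 3 each). DUSP6 took 19.9% ± 0.272 in RAS/shDOT1L, 40.6% ± 1.19 in RAS, 2.35% ± 0.146 in DOT1L OE and 16.6% ± 1.28 in control. DUSP1 took 33.6% ± 1.26 in RAS/shDOT1L, 32.6% ± 1.45 in RAS, 94.3% ± 0.444 in DOT1L OE and 67.3% ± 0.971 in control. The leading phosphatase transcript was therefore DUSP5 in RAS/shDOT1L, DUSP6 in RAS and DUSP1 in DOT1L OE and control. The sum of the 4 levels was 174 ± 7.38 CPM per kilobase in RAS/shDOT1L, 191 ± 4.07 in RAS, 212 ± 12.03 in DOT1L OE and 106 ± 3.07 in control. The sum of the 3 Sprouty genes was 25.3 ± 0.596 CPM per kilobase in RAS/shDOT1L, 94.97 ± 1.43 in RAS, 21.6 ± 0.994 in DOT1L OE and 20.6 ± 1.71 in control, and SPRY1 averaged no more than 8.83% of it in any group.

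**Figure D3:**
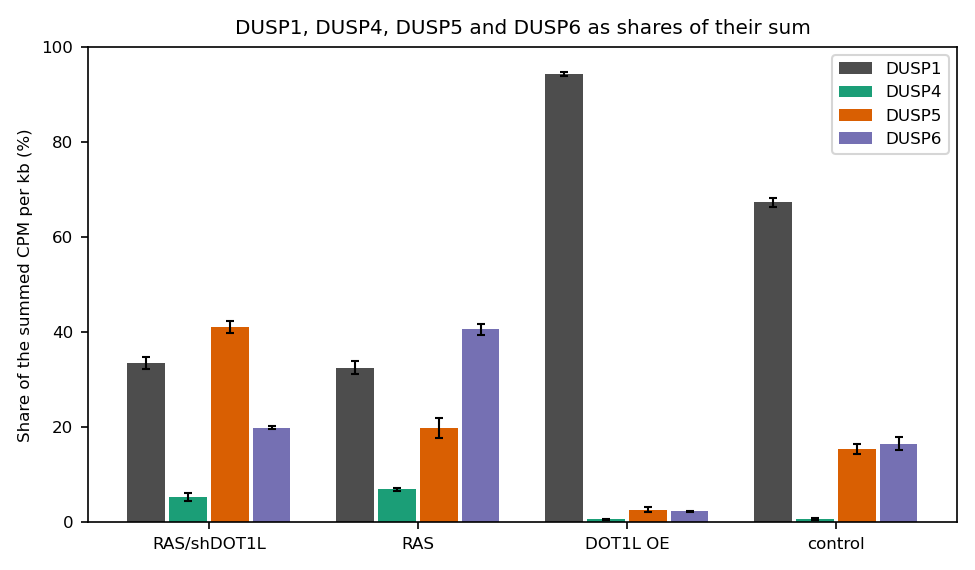
Share of each of DUSP1, DUSP4, DUSP5 and DUSP6 in the summed CPM per kilobase of the 4 genes (y axis, percent), by group; bars are means and error bars SD of 3 libraries. The tallest bar is DUSP5 in RAS/shDOT1L (41.1%), DUSP6 in RAS (40.6%) and DUSP1 in DOT1L OE (94.3%) and control (67.3%).

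Short promoter stretches are shown for DUSP1 and SPRY2, which held a match to the cAMP response or ETS core described here. SPRY1 also held an ETS core, but its stretch is not shown because that window lies inside its own transcripts. Any link between these matches and the levels above was not tested. Promoter sequences from RefSeq (GRCh38.p14) were found for 7 of the 10 genes, in 11 windows, and not for DUSP4, DUSP5 and IER3. In the 250 bases before each start, on both strands, the core of the cAMP response element (TGACGT) was found in 1 of the 11 windows, that of DUSP1, and in 7.10% of all 35116 windows. The ETS core (CCGGAA), bound by a family of factors that includes targets of ERK, was found in 2 of the 11 windows, of SPRY1 and SPRY2, and in 14.5% of all windows. Capitals mark only the letters of the cAMP response and ETS cores, and matches to other motifs are left in lower case. The stretches are of DUSP1 (chr5:172771332-172771397 and chr5:172771283-172771350, minus strand) and SPRY2 (chr13:80341233-80341298, minus strand), written 5′ to 3′ along the gene.
DUSP1 upstream: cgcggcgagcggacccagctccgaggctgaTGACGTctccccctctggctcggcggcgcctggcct
DUSP1 downstream: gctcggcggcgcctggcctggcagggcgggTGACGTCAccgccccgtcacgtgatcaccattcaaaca
SPRY2: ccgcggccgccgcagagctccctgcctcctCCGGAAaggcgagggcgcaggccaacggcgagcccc

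The matches in DUSP1 began 172, 125 and 123 bases before its start, the last of these on the opposite strand, so that they overlap in the second stretch. The match in SPRY2 began 142 bases before its start. The AP-1 motif (TGANTCA) was found in 0 of the 11 windows and in 6.57% of all windows, and the CArG box of serum response factor in 0 of 11 and 1.16% of all. TATAAA was found in 2 of the 11 windows, of DUSP1 and SPRED2, and in 10.7% of all windows, and the loose NF-κB pattern GGGNNNNNCC, which overlaps no cAMP response or ETS core here, in 7 of the 11 windows and in 54.4% of all windows. These matches describe letters in the windows.

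Other genes of the pathway were read from fixed lists, described by counts. Every count is to be read beside the shares of all genes called. These were 31.9% higher and 32% lower in RAS against control, and 26.3% and 26.4% in RAS/shDOT1L against RAS. In DOT1L OE against control they were 29.9% and 29.9%. Of 14 transcription factors that ERK induces, 11 were higher and 1 lower in RAS than in control, with a median log2 change of 1.39. Among them JUNB, a partner of FOS, changed by 2.43, MAFF by 1.60 and the ETS factor ETV4 by 2.20. In RAS/shDOT1L, 9 of the 14 were lower and 2 higher than in RAS (median -0.62), among them ETV4 at -1.23, EGR1 at -1.15 and MAFF at -0.65. In DOT1L OE, 6 were higher and 4 lower than in control of 13 tested (median 0.32), with JUNB at 1.13 and with EGR1 at -1.51 and ETV5 at -0.76. Genes that went against the larger number in the first 2 comparisons, named after their values were seen, were KLF6 (log2 change -0.98 in RAS and 0.38 in RAS/shDOT1L) and EGR2 (1.69 in RAS/shDOT1L).

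Of 10 other genes known to follow ERK activity, 8 were higher and 2 lower in RAS than in control (median 1.39). LIF, an interleukin-6 family cytokine, changed by 4.13, the lipid kinase SPHK1 by 2.99 and the urokinase receptor PLAUR by 1.79. In RAS/shDOT1L, 7 were lower and 3 higher than in RAS (median -0.90), with LIF at -4.12, the polyamine enzyme ODC1 at -1.84 and SPHK1 at -1.38. In DOT1L OE, 5 were higher and 4 lower than in control (median 0.04), with PHLDA1 at 2.01, ODC1 at 1.74 and CCND1, the cyclin of the G1 phase, at -1.74. The minority genes, named after their values were seen, were CCND1 (-0.23) and EPHA4 (-1.32) in RAS, and EPHA4 (1.62), CCND1 (0.35) and HMGA1 (0.17) in RAS/shDOT1L.

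The remaining MAPK phosphatases did not follow 1 pattern. Of those tested, 3 were higher and 1 lower of 5 in RAS than in control, 1 higher and 2 lower of 5 in RAS/shDOT1L than in RAS, and 1 of 4 passed the test in DOT1L OE. DUSP10, a phosphatase of JNK and p38, averaged 43.4 ± 3.84 CPM in RAS/shDOT1L, 16.2 ± 0.709 in RAS, 137 ± 7.60 in DOT1L OE and 50.1 ± 1.55 in control (SD, n = 3 each). It was lower in RAS than in control (log2 change -1.63, edgeR adjusted p = 4.3e-15), higher in RAS/shDOT1L than in RAS (1.44, adjusted p = 5.42e-12) and higher in DOT1L OE than in control (1.46, adjusted p = 2.87e-19). DUSP7, a cytoplasmic ERK phosphatase related to DUSP6, averaged 12.02 ± 2.27 CPM in RAS/shDOT1L, 44.8 ± 1.83 in RAS, 27.6 ± 3.86 in DOT1L OE and 28.0 ± 3.41 in control. It was lower in RAS/shDOT1L than in RAS (log2 change -1.88, edgeR adjusted p = 1.23e-13) and higher in RAS than in control (0.68, adjusted p = 8.59e-07). SPRED3 was higher in RAS than in control (1.66, edgeR adjusted p = 2.16e-09).

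For the kinase cascade itself, of 18 genes from HRAS to the RSK kinases, 8 were higher and 8 lower in RAS than in control (median 0.17), where 31.9% and 32% of all genes were. Among the higher were the adaptor SHC1 (1.12) and the MEK gene MAP2K2 (1.00). In RAS/shDOT1L 2 were higher and 9 lower than in RAS (median -0.15), where 26.3% and 26.4% of all genes were. In DOT1L OE 2 were higher and 7 lower than in control (median -0.12), where 29.9% and 29.9% of all genes were. Of 11 RAS GTPase-activating proteins and other inhibitors, 1 was higher and 4 lower in RAS than in control, 3 and 3 in RAS/shDOT1L than in RAS, and 1 and 7 in DOT1L OE than in control. Of the JNK and p38 kinases and their activating kinases, 4 were higher and 4 lower in RAS than in control (10 tested), 2 and 5 in RAS/shDOT1L than in RAS (9 tested), and 2 and 3 in DOT1L OE than in control (10 tested). The counts of inhibitors and of JNK and p38 kinases are likewise to be read beside those shares of all genes.

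**Figure D4:**
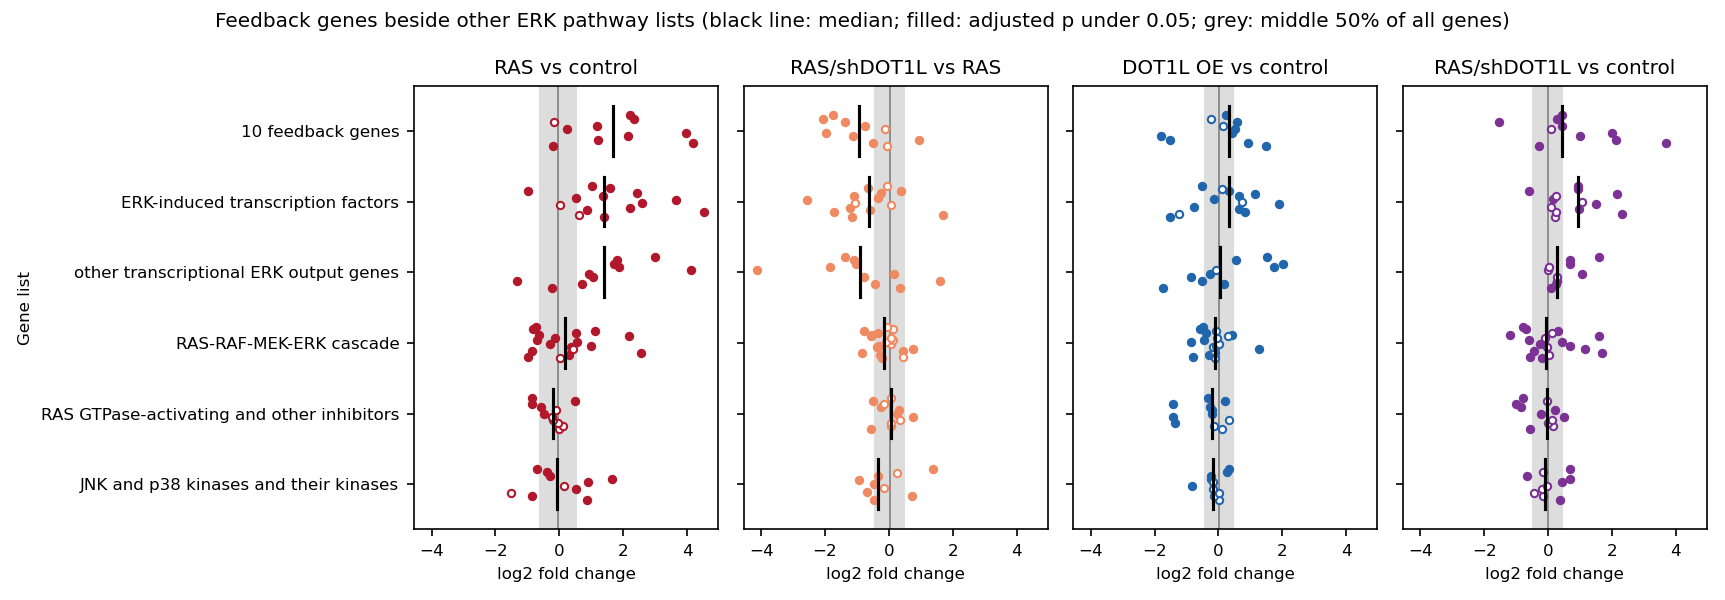
Log2 fold changes (x axes) of the feedback genes and of 5 other lists (rows) in the 4 comparisons (panels), one point per gene; filled points passed an adjusted p under 0.05, black lines are list medians and the grey band holds the middle 50% of all genes. The median of the 10 feedback genes was 1.68 in RAS against control and -0.95 in RAS/shDOT1L against RAS, outside the grey band in both.

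Log2 CPM of the 10 genes were scaled to unit spread and averaged to a profile over the 12 libraries. Single members followed it to different degrees. SPRY4 (Pearson's r 0.975), SPRED2 (0.972), IER3 (0.959) and SPRY2 (0.930) lay close to it, DUSP4 (0.836) and DUSP6 (0.696) less so, and DUSP5 (0.414), SPRED1 (0.233), SPRY1 (-0.10) and DUSP1 (-0.30) least. Each member is part of the profile, and the 12 libraries fall into 4 groups, so these values mostly restate the group means. Among 9381 other named genes with a mean of at least 10 CPM in their highest group, the 5 most like the profile were FMNL3, a formin (r 0.995), PPP6R1, a subunit of protein phosphatase 6 (0.993), P3H1, a collagen prolyl hydroxylase (0.993), NFKB2, an NF-κB subunit (0.993), and PLAUR (0.992). PLAUR, which was also on a list above, averaged 173 CPM in RAS/shDOT1L, 374 in RAS, 157 in DOT1L OE and 108 in control.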

How the data were processed

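Reads were aligned by the authors with STAR to GRCh38, and raw counts for each Ensembl gene were deposited without normalization (per the labels and methods, submitters' processing notes naming STAR 2.6.1). Poly(A) RNA was used. The strand setting is not given in the sources used here. Legends of the study describe the RNA-seq replicates as technical ones from a single experiment. The methods speak of biological replicates, but of fewer per condition than the libraries used here. The spread behind each p-value here may therefore be only technical. Replicates differed beyond sampling noise (4.33 to 7.87 chi-square units for each degree of freedom), so no library was a copy.

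The deposited counts were analysed with R 4.3.3 and edgeR 4.0.16 (filterByExpr, TMM, quasi-likelihood F test, two-sided, each comparison on its own 6 libraries), with Benjamini-Hochberg adjustment over all genes tested. CPM used TMM-scaled sizes. Levels per kilobase used exon lengths of GENCODE release 44. Scripts were tested on simulated data. Of 117 list genes, 116 had an ID. Named genes were the 10 members, HRAS, DOT1L, up to 3 genes with the smallest p past the test in each list and comparison, and the 5 genes most like the members' profile. The members and lists were chosen with earlier results of these data known. Motifs were chosen after the values were seen.

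Alternatives were DESeq2 size factors, library size only, no filter, CPM of at least 1 in 3 libraries, DESeq2 1.42.0, limma-voom (limma 3.58.1), a test for changes over 1.5-fold, a block for the replicate number, 1 fit over all 4 groups, a GC offset over 20 bins of transcript GC content, and each library left out.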

Additional observations from a re-analysis of the deposited data

How the results depend on the processing

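All calls of DUSP4, DUSP5, DUSP6, SPRY2, SPRY4, SPRED2 and IER3 in RAS against control, of DUSP1, DUSP4, DUSP5 and DUSP6 in DOT1L OE against control, and of DUSP5, DUSP6, SPRY2, SPRY4 and IER3 in RAS/shDOT1L against RAS, held in all 16 settings. In the test for changes over 1.5-fold, 3652 genes were called in RAS against control, 2273 in RAS/shDOT1L against RAS, 2838 in DOT1L OE against control and 2585 in RAS/shDOT1L against control, where the main test called 8670, 7058, 8180 and 7501. Of the members, that test called 7 higher and 0 lower in RAS than in control, where 1813 and 1839 of 13554 genes were. In RAS/shDOT1L, 1 was higher and 4 lower than in RAS, where 1118 and 1155 of 13398 genes were. Against control, 2 members were higher in DOT1L OE, and DUSP5 and DUSP6 stayed lower. RAS/shDOT1L had 4 higher and 1 lower than control. Of all calls of that test, 53.9% were higher in DOT1L OE against control and 49.4% in RAS/shDOT1L against control. Log2 changes that turned sign, called neither in the main test nor in the setting that turned them, were those of SPRY1 in RAS against control (0.028 with the GC offset, and -0.50 to 0.093 over the fits without 1 replicate), DUSP1 in RAS/shDOT1L against RAS (0.0023 with library size only and 0.14 with the GC offset) and SPRED1 in RAS/shDOT1L against control (-0.0081 with library size only). With library size only, the median log2 change of all genes was -0.24 in RAS against control and -0.13 in RAS/shDOT1L against control, and 36.9% and 40.0% of calls were higher, where TMM scaling gave 49.9% and 50.3%. With each library left out, no count of calls moved by over 1.5 times. Same-numbered libraries did not deviate together (correlations -0.019 to 0.027), and with the replicate number as a block 8435, 6871, 8030 and 7303 genes were called in the 4 comparisons in the order above, with the same member counts. Depth limits SPRY1, at 16 to 162 counts in a library, most.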
